A study of Rattus norvegicus with 48 samples.

Results

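The genes described here are 6 receptor tyrosine kinases, Pdgfrb, Fgfr1, Kdr, Flt1, Kit and Egfr, and the ligand gene Vegfa. They were chosen by rat Ensembl ID (Pdgfrb ENSRNOG00000018461, Fgfr1 ENSRNOG00000016050, Kdr ENSRNOG00000046829, Flt1 ENSRNOG00000000940, Kit ENSRNOG00000002227, Egfr ENSRNOG00000004332 and Vegfa ENSRNOG00000019598) as targets or near targets of multikinase inhibitors, and make up 7 of the 32883 genes in the deposited count table. All 7 passed the filter on low counts, which left 14775 genes. Transcripts were measured by RNA sequencing in precision-cut slices of rat liver, thin pieces of living tissue kept outside the body, in 48 libraries. Ligated slices received Sora (BDL_Sora, n = 10), Nint (BDL_Nint, n = 10), SB525334 (BDL_SB525334, n = 9) or vehicle (BDL_veh, n = 10), and slices from sham-operated rats received vehicle (Sham_veh, n = 9). BDL stands for bile duct ligation, an operation that blocks bile flow and is followed by cholestatic fibrosis. Sora and Nint are read as sorafenib and nintedanib, since the labels give only the short forms. Sorafenib is a kinase inhibitor known to act on RAF, VEGF receptors, PDGFRB and KIT, and nintedanib on VEGF, PDGF and FGF receptors. SB525334 inhibits ALK5, the TGF-beta type I receptor kinase. A deposited sample sheet gives another compound code for 9 of 9 libraries of that group, so its identity rests on the labels. The labels state neither strain, age, dose, exposure time nor the number of animals, so p-values measure only the spread between libraries, which may be technical.

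Receptor tyrosine kinases are membrane proteins that pair up when a ligand binds and then phosphorylate each other and downstream proteins, which drives growth, migration and survival. In liver, VEGF receptors are known from sinusoidal endothelial cells, PDGFRB from stellate cells and myofibroblasts, FGFR1 from mesenchymal cells, KIT from mast cells and progenitors, and EGFR from hepatocytes. VEGFA is secreted by several cell types and is induced by low oxygen. The inhibitors act on the proteins' kinase activity, whereas the values below are transcript levels.

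Depth was 12249470 to 29596987 counts per library. Levels are in CPM, the count relative to library size, with TMM factors, which correct for differences in RNA composition, and 3 counts equalled 0.101 to 0.245 CPM. Gene lengths were not used, so levels are compared between groups and not between genes. SB525334 libraries 1, 6 and 8 stood apart from the rest of their group, with scores of 51.2, 53.7 and 37.1 on the second principal component against 80.6 to 108 in the other 6. Vehicle libraries 3 and 6 stood apart on the third component, at -4.91 and 15.9 against 37.9 to 46.5. Sora and Nint libraries were uneven on it too. Sora libraries 1, 3 and 10 lay at -52.9, -43.1 and -33, against -14.4 to 16 in the rest of that group, and Nint libraries ran from -40.4 to 3.94. No fit left out these Sora or Nint libraries as a set. SB525334 libraries also had a higher share of mitochondrial reads (2.19% to 4.49%) than ligated vehicle libraries (1.33% to 1.54%), and of non-uniquely mapped reads (9.85% to 20.8%, against 8.1% to 8.89%). They had lower shares of intronic reads (26% to 33.1%, against 33.7% to 36.8%) and of unique fragments, a measure of duplication (67.2% to 78.8%, against 79.5% to 84.2%). Ligated vehicle libraries lay below sham libraries in mitochondrial reads, at 1.33% to 1.54% against 2.02% to 2.46%. The same held for non-uniquely mapped reads, at 8.1% to 8.89% against 10.2% to 12.7%, both without overlap. Ligated vehicle libraries had a higher share of intronic reads, at 33.7% to 36.8%, against 24.4% to 31.1% in sham libraries. Their share of unique fragments was higher too, at 79.5% to 84.2% against 74.3% to 78.5%. The part of these shares in the results was not tested. In bulk tissue, fewer cells of a type and less RNA per cell cannot be told apart.

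**Figure D1:**
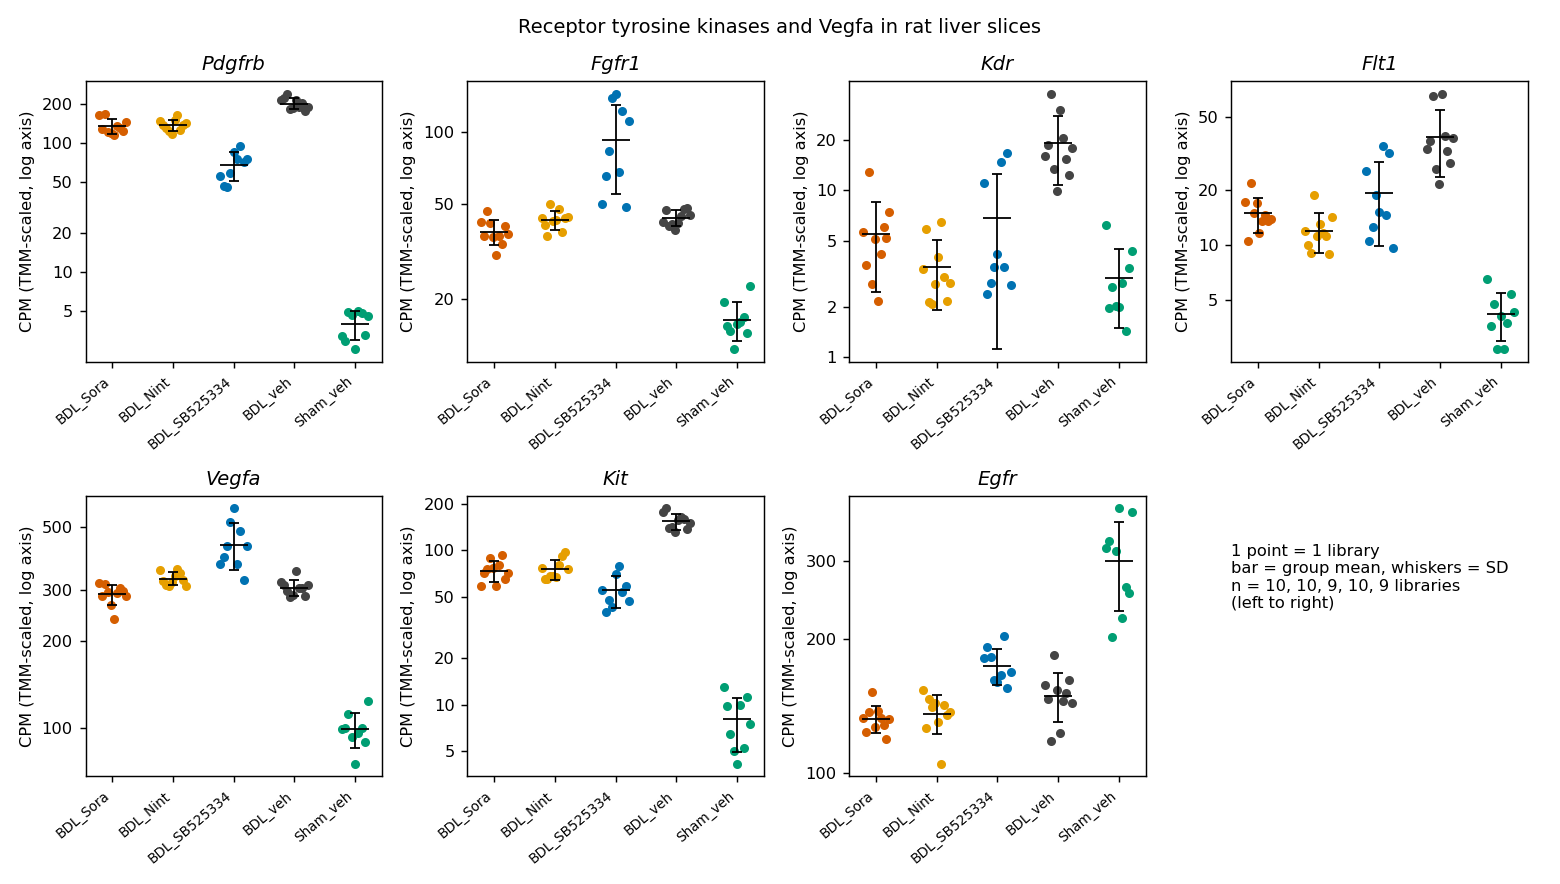
Level of each gene (CPM, log axis) in every library, 1 point a library, with the group mean as a bar and the SD as whiskers; groups run from BDL_Sora to Sham_veh. Pdgfrb and Kit were highest in ligated vehicle libraries, at means of 201 and 155 CPM, Egfr was highest in sham libraries, at 299 CPM, and Kdr in SB525334 libraries split into 3 high and 6 low values.

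To see what ligation did, vehicle libraries of ligated and sham rats were compared. All 6 of Pdgfrb, Kit, Flt1, Kdr, Vegfa and Fgfr1 rose and Egfr fell, so 7 of 7 genes were called (quasi-likelihood F test in edgeR, at a p under 0.05 after Benjamini-Hochberg adjustment over all genes tested). The background is high, since 82.2% of all tested genes were called in this comparison, 40% higher and 42.2% lower. Libraries of the groups did not overlap for any of the 7 genes, against 52.6% of all genes. The median log2 fold change was 2.70 over the 7 genes and -0.05 over all genes tested. Pdgfrb changed most of them, and 301 genes of the table changed more than it did.

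With Sora, Kdr, Flt1, Kit and Pdgfrb fell relative to ligated vehicle slices, and Vegfa, Fgfr1 and Egfr were not called. These are 4 of 7 genes, against 29.3% of all genes called and 13% called lower, and the groups did not overlap for 2 of them, Pdgfrb and Kit, against 7.7% of all genes. With Nint, Kdr, Flt1, Kit and Pdgfrb fell, and Vegfa, Fgfr1 and Egfr were not called. Here too 4 of 7 were called, against 24.3% of all genes called and 10.9% called lower. The groups did not overlap for any of those 4, against 7.71% of all genes. With SB525334, 7 of 7 were called, against 73% of all genes (38.2% higher and 34.8% lower): Pdgfrb, Kit, Kdr and Flt1 fell, and Fgfr1, Vegfa and Egfr rose, of which Egfr turned to -0.19 when libraries were scaled by total counts. Pdgfrb, Kit and Fgfr1 did not overlap between the groups, against 34.5% of all genes. The 3 comparisons share the same 10 vehicle libraries, so their values are not independent of each other. Median log2 fold changes over the 7 genes were -0.58 with Sora, -0.55 with Nint and -1.01 with SB525334, beside 0.02, 0.02 and 0.04 over all genes.

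**Figure D2:**
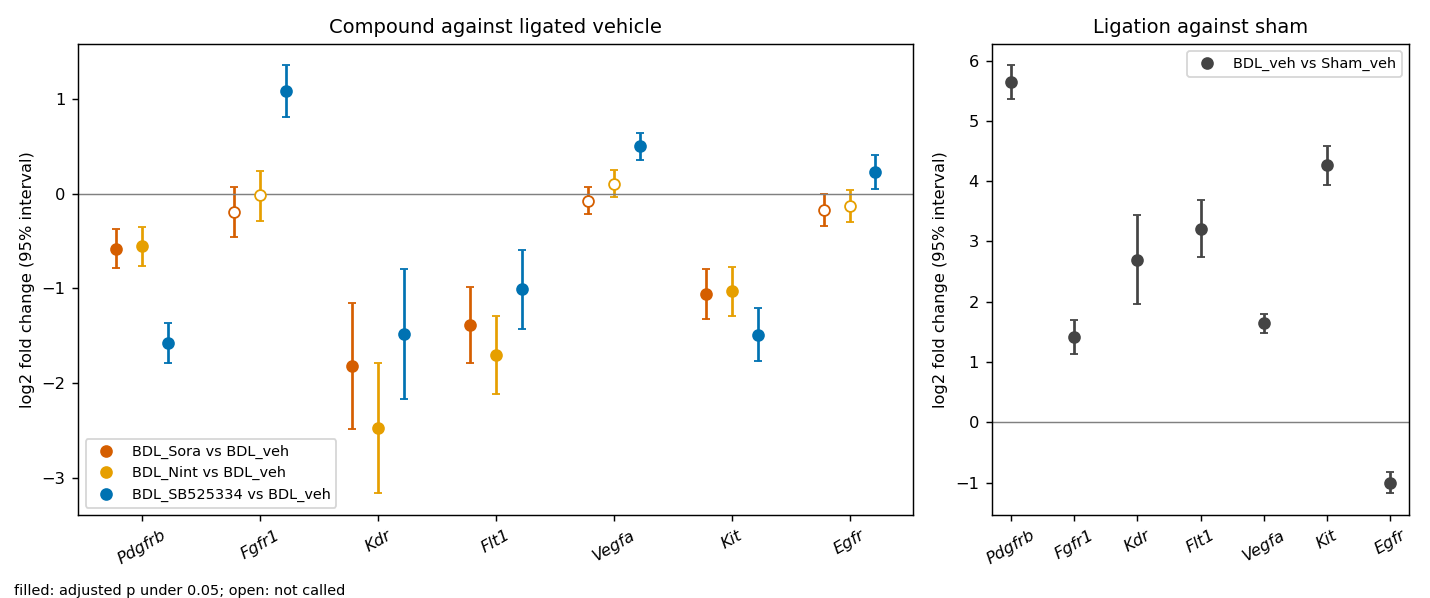
Log2 fold change of each gene with its 95% interval, for each compound against ligated vehicle (left) and for ligated against sham vehicle (right); filled points were called at an adjusted p under 0.05. Kdr has the lowest point with Nint, at -2.47, and Fgfr1 the highest with SB525334, at 1.08, while Egfr with SB525334, at 0.23, turned to -0.19 with total counts.

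The VEGF ligand and its receptors come first. Vegfa encodes the main ligand that drives growth of blood vessels. Its level was 239, 296 and 318 CPM (lowest, median and highest library) with Sora, 310, 324 and 356 CPM with Nint, 325, 427 and 578 CPM with SB525334, 285, 306 and 351 CPM in ligated vehicle slices, and 75.1, 99.1 and 124 CPM in sham slices. Every ligated library thus lay above every sham library, and 8 of 9 SB525334 libraries lay above the highest ligated vehicle library. Ligation raised Vegfa by 1.64 on the log2 scale (SE 0.0768, adjusted p = 1.48e-24), a 3.11-fold difference. SB525334 raised it further, by 0.50 (SE 0.0739, adjusted p = 7.34e-08), but by 0.07 (adjusted p = 0.338) with total counts, a scaling under which the median of all genes was -0.38. Over all alternatives that leave in every library or drop the named ones, its adjusted p lay between 1.6e-10 and 0.338. Its log2 difference was -0.08 with Sora (95% interval -0.22 to 0.07, adjusted p = 0.469) and 0.10 with Nint (-0.04 to 0.25, adjusted p = 0.328). The Nint difference was called in 2 alternatives, the fit of 2 groups alone (adjusted p = 0.0452) and limma-voom (adjusted p = 0.0345), with up to 0.511 under the others.

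Kdr encodes VEGF receptor 2, the main signalling receptor for VEGFA on endothelial cells. Kdr was scarce in all groups, at 21 to 634 counts per library. It reached 2.17, 5.15 and 12.9 CPM (lowest, median and highest) with Sora, 2.09, 2.91 and 6.45 CPM with Nint, 2.38, 3.49 and 16.8 CPM with SB525334, 9.88, 17.1 and 37.9 CPM in ligated vehicle slices, and 1.44, 2.64 and 6.19 CPM in sham slices. Only Sora library 3 and SB525334 libraries 1, 6 and 8 reached into the range of the ligated vehicle libraries, and no Nint library did. Ligation raised Kdr 6.52-fold (log2 fold change 2.70, SE 0.363, adjusted p = 4.39e-09).

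Relative to ligated vehicle slices, Kdr had the largest decrease of the 7 genes with Sora and with Nint. The log2 fold change was -1.82 with Sora (SE 0.328, adjusted p = 2.78e-05) and -2.47 with Nint (SE 0.341, adjusted p = 1.98e-07), which left 0.284 and 0.18 of the vehicle level. With SB525334 it was -1.48 (SE 0.338, adjusted p = 0.000142). The SB525334 group was uneven: libraries 1, 6 and 8 held 11.1, 14.7 and 16.8 CPM and the other 6 held 2.38 to 4.13 CPM. Without those 3 libraries the log2 fold change was -2.60 (adjusted p = 5.79e-09, the lowest of the alternatives, which reached up to 0.00211). Without vehicle libraries 3 and 6, the 2 highest of that group at 37.9 and 30.3 CPM, it was -1.51 with Sora, -2.16 with Nint and -1.17 with SB525334, each still called. Against sham slices, Kdr with Nint differed by 0.23 (95% interval -0.51 to 0.97, adjusted p = 0.564), with Sora by 0.89 (adjusted p = 0.0222) and with SB525334 by 1.23 (adjusted p = 0.00243). The Sora call was lost without Sora library 3 (0.66, adjusted p = 0.0835) and in limma-voom (0.79, adjusted p = 0.0772). It was also lost with the plate column, a number inferred from the library codes, in the fit (0.75, adjusted p = 0.0535). The adjusted p of the Sora difference over the alternatives went down to 0.00325. The SB525334 call was lost without libraries 1, 6 and 8 (0.10, adjusted p = 0.795) and in limma-voom (0.67, adjusted p = 0.225), against a lowest adjusted p of 0.000549.

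Flt1 encodes VEGF receptor 1, which binds VEGFA tightly, signals weakly and is also made as a soluble decoy. Its level was 10.6, 14.3 and 21.9 CPM with Sora, 8.9, 11.5 and 18.7 CPM with Nint, 9.6, 15.1 and 34.6 CPM with SB525334, 21.7, 35.4 and 67.1 CPM in ligated vehicle slices, and 2.71, 4.1 and 6.55 CPM in sham slices. Every ligated library lay above every sham library, unlike Kdr. Ligation raised Flt1 9.27-fold (log2 fold change 3.21, SE 0.234, adjusted p = 3.45e-17). The compounds lowered it to 0.382 of the vehicle level with Sora (-1.39, SE 0.202, adjusted p = 4.94e-07), 0.308 with Nint (-1.70, SE 0.205, adjusted p = 8.72e-09) and 0.495 with SB525334 (-1.01, SE 0.207, adjusted p = 2.81e-05). SB525334 libraries 1, 6 and 8, at 25.4, 34.6 and 31.9 CPM, were again the highest of their group, whose other 6 libraries held 9.6 to 18.8 CPM. Without them the log2 fold change with SB525334 was -1.52, and without vehicle libraries 3 and 6 it was -0.74.

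As the levels of Kdr and Flt1 are compared library by library, the 250 bases upstream of the start of each gene are shown, from RefSeq on build GRCr8. The Kdr window lies at chr14:32571813-32572062 on the plus strand and that of Flt1 at chr12:12333180-12333429 on the plus strand. Capitals mark GGGCGG (the GC box), TATAAA (the TATA box) and TGACGTCA (the cyclic AMP response element), searched on both strands, so that a GC box on the other strand reads CCGCCC.
Kdr: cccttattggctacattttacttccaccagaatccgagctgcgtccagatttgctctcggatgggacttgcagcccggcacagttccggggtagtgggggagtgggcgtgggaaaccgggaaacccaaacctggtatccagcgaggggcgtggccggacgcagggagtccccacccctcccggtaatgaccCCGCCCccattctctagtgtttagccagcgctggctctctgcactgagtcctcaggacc
Flt1: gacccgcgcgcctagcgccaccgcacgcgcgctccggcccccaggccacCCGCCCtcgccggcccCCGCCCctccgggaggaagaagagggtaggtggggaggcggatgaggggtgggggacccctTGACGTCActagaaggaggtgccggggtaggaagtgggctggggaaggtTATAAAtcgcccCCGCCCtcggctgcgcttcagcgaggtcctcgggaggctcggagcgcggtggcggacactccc
The Kdr window held 1 GC box and no TATA box, and the Flt1 window held 3 GC boxes, 1 TATA box and 1 cyclic AMP response element. Among 33469 windows of the same length, 30.5% held GGGCGG, 12.9% TATAAA and 1.59% TGACGTCA. G and C made up 61.6% of the Kdr window and 73.2% of the Flt1 window, against a median of 51.2% over all windows. GGAA, the core of ETS factor sites, occurred 4 times in the Kdr window and 3 times in the Flt1 window, and in 93.2% of all windows. These matches describe letters only.

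Within ligated vehicle slices, log2 CPM of Kdr and Flt1 rose and fell together from library to library, with Pearson r = 0.98 and Spearman rho = 0.96 (n = 10, permutation test with 100000 resamples, p = 4e-05 for each, adjusted p = 0.0008 over 20 relations). Without the 2 libraries farthest from the Kdr median r was 0.97. In Sora slices r was 0.73 and rho 0.59 (permutation adjusted p = 0.131 and 0.224), and r fell to 0.29 without the 2 farthest libraries. In Nint slices r was -0.10 and rho 0.07 (permutation adjusted p = 0.878 and 0.906), and in sham slices r was 0.64 and rho 0.57 (n = 9, exact permutation adjusted p = 0.179 and 0.241). SB525334 libraries fell into 2 clusters on both genes, so no pooled r is given for them. Kdr had 171 to 634 counts per library in ligated vehicle slices, but 39 to 192 with Sora, 29 to 101 with Nint and 21 to 69 in sham slices. Lower counts carry more counting error, whose part in the lower r was not tested. Whether r differed between groups was not tested either. No correlation of Vegfa with Kdr or Flt1, or of Pdgfrb with Fgfr1, passed an adjusted p of 0.05 in any group.

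**Figure D3:**
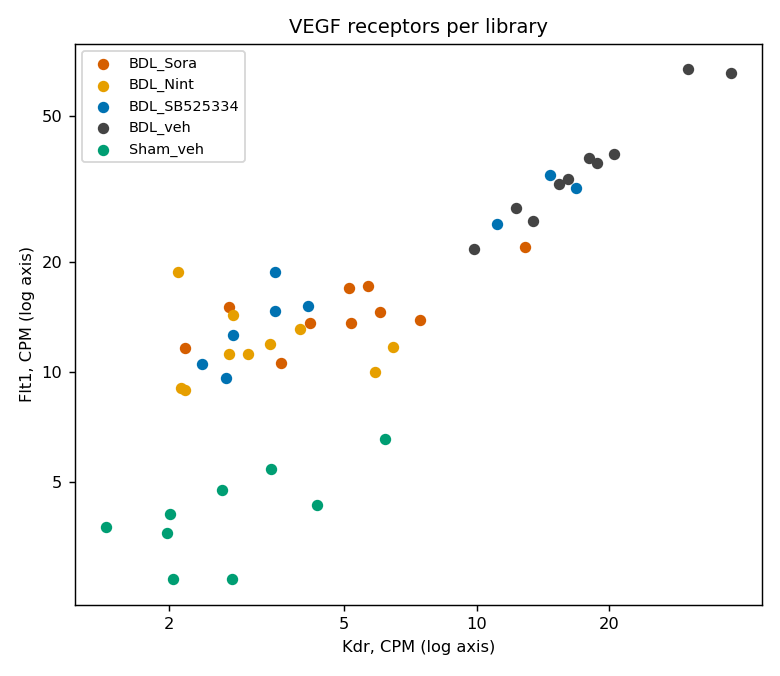
Flt1 against Kdr in each library (CPM, both axes log), coloured by group. The 10 ligated vehicle libraries lie along 1 line from 9.88 to 37.9 CPM of Kdr, and SB525334 libraries 1, 6 and 8 lie on that line, at 11.1 to 16.8 CPM, apart from the other 6.

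Ratios within a library do not depend on library scaling. The log2 ratio of Vegfa to Kdr counts averaged 5.88 ± 0.66 with Sora, 6.67 ± 0.53 with Nint, 6.36 ± 1.29 with SB525334, 4.10 ± 0.54 in ligated vehicle slices and 5.16 ± 0.60 in sham slices (SD). Ligation lowered it by a difference of -1.05 (exact permutation test, adjusted p = 0.00217 over 20 ratio tests). It was higher than in ligated vehicle slices by 1.78 with Sora and 2.57 with Nint (permutation test with 100000 resamples, adjusted p = 0.0004 each; with Nint the raw p of 2e-05 is the smallest the resamples can give). With SB525334 it was higher by 2.26 (exact permutation adjusted p = 0.00147), and by 3.11 without libraries 1, 6 and 8, whose ratios of 5.07, 4.66 and 4.27 lay below the 7.09 to 7.33 of the other 6. Nint libraries alone did not overlap with ligated vehicle libraries. Nint also exceeded Sora by 0.78 (permutation adjusted p = 0.0151).

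The log2 ratio of Kdr to Flt1 averaged -1.58 ± 0.55 with Sora, -1.86 ± 0.68 with Nint, -1.75 ± 0.51 with SB525334, -1.04 ± 0.12 in ligated vehicle slices and -0.58 ± 0.49 in sham slices (SD). Its spread was thus narrowest in ligated vehicle slices, where Kdr levels were also highest and counting error smallest. This difference in spread was not tested. Kdr fell more than Flt1 with each compound: the ratio differed from ligated vehicle slices by -0.54 with Sora (permutation adjusted p = 0.00829), -0.82 with Nint (permutation adjusted p = 0.00215) and -0.72 with SB525334 (exact permutation adjusted p = 0.00229). Under ligation Flt1 rose more than Kdr, with a difference of -0.46 (exact permutation adjusted p = 0.0192). The groups overlapped in all of these.

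**Figure D4:**
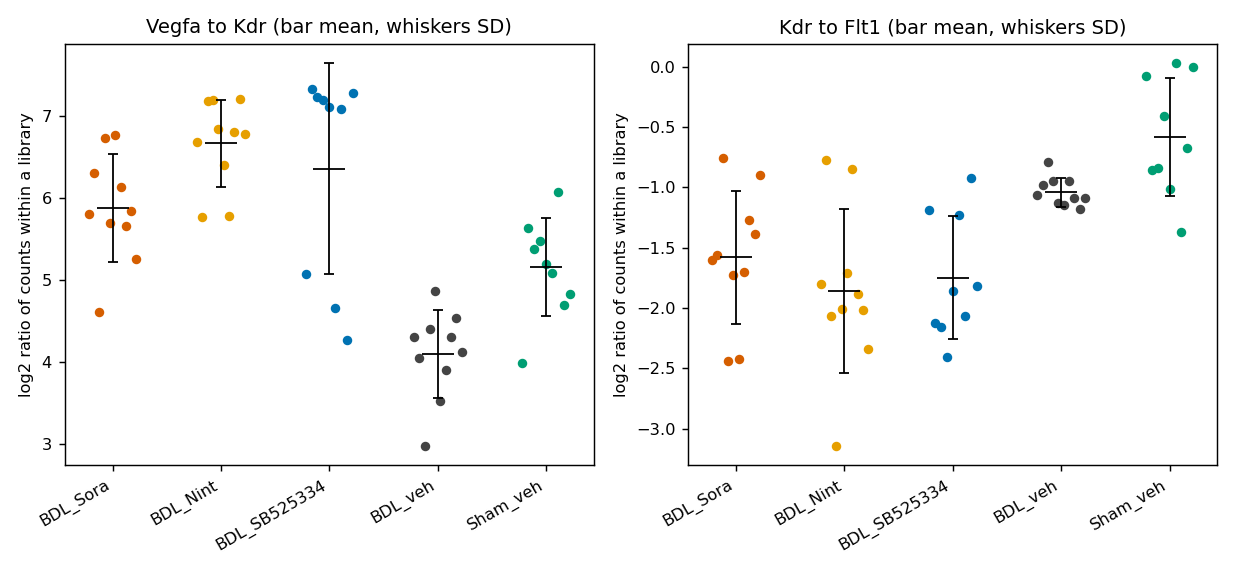
Log2 ratio of Vegfa to Kdr counts (left) and of Kdr to Flt1 counts (right) in each library, with 0.5 added to each count, the group mean as a bar and the SD as whiskers. Ligated vehicle libraries have the lowest mean Vegfa to Kdr ratio, 4.10, and their Kdr to Flt1 ratios stay between -1.18 and -0.79.

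Pdgfrb encodes the PDGF receptor beta, which drives proliferation and migration of stellate cells and myofibroblasts. Its level was 115, 128 and 168 CPM with Sora, 117, 137 and 164 CPM with Nint, 45.7, 70.7 and 94.4 CPM with SB525334, 175, 196 and 239 CPM in ligated vehicle slices, and 2.55, 4.57 and 5.03 CPM in sham slices. The ligated vehicle range lay above all 3 compound ranges, the SB525334 range lay below those of Sora and Nint, and all lay above the sham range. Ligation raised Pdgfrb 49.9-fold (log2 fold change 5.64, SE 0.137, adjusted p = 8.08e-36). SB525334 lowered it to 0.336 of the vehicle level (-1.57, SE 0.108, adjusted p = 1.12e-17). The decreases with Sora, to 0.671 (-0.58, SE 0.102, adjusted p = 1.69e-05), and with Nint, to 0.682 (-0.55, SE 0.102, adjusted p = 3.69e-05), were smaller. It remained 33.5-fold, 34.1-fold and 16.8-fold above sham slices with Sora, Nint and SB525334.

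Fgfr1 encodes a receptor for fibroblast growth factors. Its level was 30.3, 37 and 46.4 CPM with Sora, 36.6, 43.1 and 49.6 CPM with Nint, 48.5, 82.7 and 144 CPM with SB525334, 38.7, 43.1 and 47.7 CPM in ligated vehicle slices, and 12.3, 15.7 and 22.6 CPM in sham slices. All 9 SB525334 libraries lay above the highest ligated vehicle library, though their spread was wide (92.1 ± 37.4 CPM, against 43.5 ± 3.24 CPM, SD). Libraries 1 and 8, at 49.7 and 48.5 CPM, lay just above that limit, and library 6 held 67.5 CPM. SB525334 raised Fgfr1 2.12-fold (log2 fold change 1.08, SE 0.135, adjusted p = 1.19e-09), on top of a 2.67-fold rise with ligation (1.41, SE 0.142, adjusted p = 1.32e-12). The size of the SB525334 rise varied, at 0.65 with total counts and 1.35 without libraries 1, 6 and 8, each still called. With Sora the difference was -0.19 (95% interval -0.46 to 0.07, adjusted p = 0.295), which 2 of the alternative fits called, and with Nint it was -0.02 (-0.29 to 0.24, adjusted p = 0.932).

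Kit encodes the receptor for stem cell factor and is best known from mast cells. Its upstream window from RefSeq, at chr14:32978813-32979062 of GRCr8 on the minus strand, is shown because Kit and Kdr both lie on chromosome 14, with 2 genes between them in the reference table, 0 of them protein coding.
Kit: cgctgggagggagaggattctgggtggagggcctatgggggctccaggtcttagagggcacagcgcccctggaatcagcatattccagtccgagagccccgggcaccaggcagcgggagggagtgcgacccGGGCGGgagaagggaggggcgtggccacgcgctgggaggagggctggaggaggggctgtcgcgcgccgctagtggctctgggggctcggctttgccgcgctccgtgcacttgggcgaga
The capitals mark its 1 GC box, and no TATA box or cyclic AMP response element was found. Kit had 58.5, 73.8 and 93.4 CPM with Sora, 65, 72.2 and 97.6 CPM with Nint, 40.2, 53.8 and 79.2 CPM with SB525334, 131, 154 and 187 CPM in ligated vehicle slices, and 4.17, 7.56 and 13.1 CPM in sham slices. Each compound range lay between the ligated vehicle and the sham ranges without touching either. Ligation raised Kit 19.2-fold (log2 fold change 4.26, SE 0.159, adjusted p = 2.76e-28). The log2 fold change against ligated vehicle slices was -1.06 with Sora (SE 0.13, adjusted p = 1.16e-08), -1.03 with Nint (SE 0.13, adjusted p = 2.59e-08) and -1.49 with SB525334 (SE 0.137, adjusted p = 2.17e-13). Kit thus stayed 9.19-fold, 9.39-fold and 6.85-fold above sham slices.

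Egfr encodes the receptor for EGF and TGF-alpha, which is abundant on hepatocytes and drives their regeneration. Its level was 119, 132 and 152 CPM with Sora, 105, 139 and 154 CPM with Nint, 155, 169 and 203 CPM with SB525334, 118, 149 and 184 CPM in ligated vehicle slices, and 202, 315 and 393 CPM in sham slices. The sham libraries were highest, and 1 SB525334 library, at 203 CPM, reached into their range. Egfr was the only member that fell with ligation, to 0.498 of the sham level (log2 fold change -1.01, SE 0.0875, adjusted p = 1.12e-14). The size of this fall varied over the alternatives, from -1.01 to -0.66, the smallest with total counts, each still called. With SB525334 Egfr was 0.23 above ligated vehicle slices (SE 0.0873, adjusted p = 0.017), and 7 of 9 libraries lay within the vehicle range. Of the 12 alternatives, 7 ended this call. It was lost under RLE factors (0.16, adjusted p = 0.105), DESeq2 (0.16, adjusted p = 0.106), the plate column (0.13, adjusted p = 0.227), the 5 CPM filter (0.17, adjusted p = 0.0817), the fit of 2 groups alone (0.16, adjusted p = 0.0677) and without vehicle libraries 3 and 6 (0.16, adjusted p = 0.0946), and the sign turned with total counts (-0.19, adjusted p = 0.0563); the lowest adjusted p over the alternatives was 0.00853. With Sora the difference was -0.17 (95% interval -0.34 to 0.00, adjusted p = 0.135) and with Nint -0.13 (-0.30 to 0.04, adjusted p = 0.304); limma-voom called the Nint difference (-0.15, adjusted p = 0.0425, the lowest of alternatives that reached 0.356). The Sora difference was called in 4 alternatives, without vehicle libraries 3 and 6 (-0.23, adjusted p = 0.0343) among them, with adjusted p between 0.00287 and 0.178 over all of them.

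**Figure D5:**
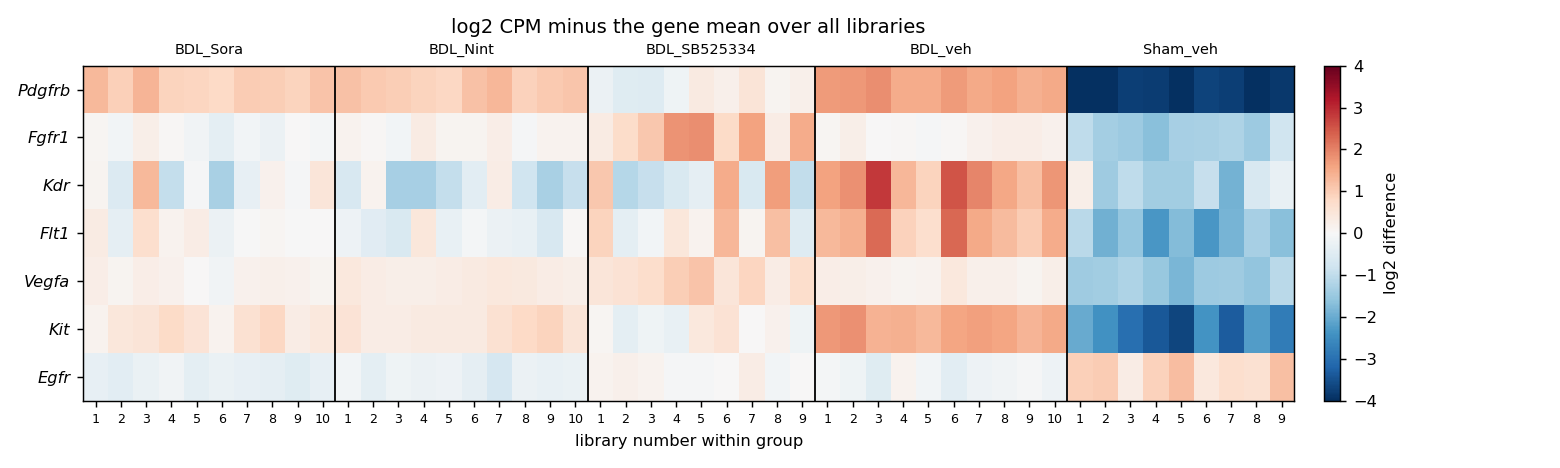
Log2 CPM of each gene in each of the 48 libraries minus the gene's mean over all libraries, from blue (lower) to red (higher), with libraries numbered within groups. Pdgfrb and Kit are darkest blue in the 9 sham libraries, and Kdr and Flt1 are red in SB525334 libraries 1, 6 and 8 and deepest red in vehicle libraries 3 and 6.

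The compounds were also set against each other; doses are not given in the labels, so these are differences between treatments as applied. Between Nint and Sora, 0 of 7 genes were called by edgeR, against 2.32% of all genes. At an unadjusted p under 0.05 there was 1, Vegfa, which was 0.18 higher with Nint (p = 0.0161, adjusted p = 0.185) and was called in the fit of the 2 groups alone (adjusted p = 0.014) and in limma-voom (adjusted p = 0.00217), with up to 0.254 under the other alternatives. DESeq2 called 0. Intervals for Pdgfrb (0.03, 95% interval -0.18 to 0.23) and Kit (0.03, -0.23 to 0.29) were narrow, and that for Kdr (-0.66, -1.34 to 0.03) was wide.

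Between SB525334 and Sora, 5 of 7 genes were called, against 72.4% of all genes (36.1% higher and 36.3% lower). Fgfr1 (1.27), Vegfa (0.57) and Egfr (0.40) were higher, and Kit (-0.42) was lower with SB525334. Pdgfrb was lower too, at 0.501 of its level with Sora (adjusted p = 1.7e-11). With total counts the Egfr difference was 0.04 (adjusted p = 0.699, the highest of alternatives that began at 2.36e-06). Kdr and Flt1 were not called, at 0.34 (95% interval -0.35 to 1.02) and 0.37 (-0.04 to 0.79). Without SB525334 libraries 1, 6 and 8 they were -0.79 (adjusted p = 0.0312) and -0.14 (adjusted p = 0.55). Over the alternatives the adjusted p lay between 0.0312 and 0.956 for Kdr and between 0.0674 and 0.871 for Flt1. Flt1 was called when SB525334 library 2 (0.45, adjusted p = 0.0476) or 9 (0.46, adjusted p = 0.042) was left out.

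Between SB525334 and Nint, 7 of 7 genes were called, against 72.7% of all genes (36.4% higher and 36.3% lower). With total counts 3 of 7 were called, against 11239 of 14775 genes. Fgfr1 (1.11), Kdr (0.99), Flt1 (0.69), Vegfa (0.39) and Egfr (0.36) were higher, and Pdgfrb (-1.02) and Kit (-0.46) lower with SB525334; with total counts Vegfa was -0.003 and Egfr -0.03. The Kdr and Flt1 calls were lost without SB525334 libraries 1, 6 and 8, where the values were -0.13 (adjusted p = 0.733) and 0.18 (adjusted p = 0.426). These are the highest adjusted p of the alternatives, whose lowest were 0.00784 for Kdr and 0.00116 for Flt1. Leaving out library 8 alone also ended the Kdr call (0.71, adjusted p = 0.0623). With every library kept, Kdr was not called with total counts (adjusted p = 0.0938), in limma-voom (0.517) or on the deposited log2 CPM (0.0707). Flt1 was not called with total counts (adjusted p = 0.171) or in limma-voom (0.149).

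Against sham slices, 7 of 7 genes were called with Sora (80.4% of all genes), 6 of 7 with Nint (80.9%) and 7 of 7 with SB525334 (81.2%), Kdr with Nint being the exception. The order of group means, with neighbours that were not called as different joined, differed by gene. For Pdgfrb it ran from ligated vehicle through Nint and Sora (joined) and SB525334 to sham slices, and Kit had the same order. Fgfr1 and Vegfa were highest with SB525334, with the other 3 ligated groups joined and sham lowest, but with total counts Vegfa with SB525334 differed by 0.07 from ligated vehicle slices and by -0.003 from Nint, neither called. Egfr was highest in sham slices, then with SB525334, then in the 3 other ligated groups (joined), but with total counts SB525334 lay at -0.19 from ligated vehicle slices and -0.03 from Nint. Kdr and Flt1 were highest in ligated vehicle slices, followed by SB525334, Sora and Nint (each joined to its neighbour, although SB525334 and Nint were called as different), and Nint was joined to sham slices for Kdr but not for Flt1. The place of SB525334 rested on libraries 1, 6 and 8, without which Kdr was at -0.79 from Sora and -0.13 from Nint, and Flt1 at -0.14 from Sora.

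Likeness of pattern was measured as the root mean square difference of centred log2 CPM over the 48 libraries, where a smaller value is more alike. Among 14774 other genes, Flt1 ranked 35 in likeness to Kdr (0.664), and Kdr ranked 130 in likeness to Flt1. Vegfa ranked 34 in likeness to Fgfr1 (0.312), and Fgfr1 ranked 115 in likeness to Vegfa. Kit ranked 341 in likeness to Pdgfrb (0.745), and Egfr ranked 13060. The gene most like Pdgfrb was ENSRNOG00000061484 (0.302), the one most like Kdr was ENSRNOG00000011154 (0.347), and the one most like Egfr was ENSRNOG00000012966 (0.179), IDs that the files pair with no symbol.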

How the data were processed

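Whole-liver-slice RNA was sequenced in 48 libraries. Total RNA was prepared with a column kit in 96-well format and libraries followed Illumina protocols, per the labels' protocols. RSEM and edgeR, with no versions, and build Rnor_6.0 are named per the submitters' processing notes; the sources used here name no aligner or annotation. The authors deposited expected counts without normalisation, and these were rounded, since 8.02% of values were not whole (tolerance 1e-06). A log2 CPM table for 14418 genes, deposited by the authors, served as an alternative, and percent values came from a deposited quality table of mixed percentages and scores per library, which puts 98.4% to 99% of reads on the antisense strand for read 1.

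Genes were kept by filterByExpr and scaled with TMM. The quasi-likelihood test of edgeR 4.0.16 (R 4.3.3) used a single model of all 48 libraries, with a term for each group, for 10 comparisons, two-sided, with Benjamini-Hochberg adjustment over 14775 genes. Standard errors come from the F statistic. Ratios, with 0.5 added per count, and within-group correlations of log2 CPM (prior count 2) were tested by permutation in SciPy 1.17.1 (Python 3.11.15), two-sided, exact where a group had 9 libraries and with 100000 resamples otherwise. The fit was tested on simulated data, with levels in all groups drawn from ligated vehicle libraries. Only 50 genes per fold size were changed, among 14500 to 14520 genes. In that setting it recovered 28% to 32% of 1.25-fold changes, 68% to 80% of 1.5-fold changes and 86% to 92% of 2-fold changes. The real comparisons called far larger shares, up to 82.2% for ligation, which makes the adjusted threshold less strict. These rates therefore do not give the power of the real comparisons. Every pair of libraries within a group differed beyond counting error (lowest chi-square per degree of freedom 3.94 over 207 pairs).

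Alternatives were RLE factors, total counts, no filter, 5 CPM in at least 9 libraries, DESeq2 1.42.0, limma 3.58.1 on the deposited log2 CPM, limma-voom weighted by sample, fits of 2 groups alone, replicate number as a block, plate column, and leaving out libraries. The plate column was inferred from digits in the library codes. Groups were spread unevenly over it, with ligated vehicle libraries in columns 3 to 6 only. Genes and lists were chosen with earlier results of these data known. All 7 genes were named in every comparison, with the gene nearest in pattern for 3 of them. Other pathway genes and cell type markers were not analysed here, because the reference table (GRCr8, 47357 genes) holds 0 Ensembl IDs; tissue identity was therefore not checked by markers. Symbols of the 7 genes came with their IDs. RefSeq upstream windows matched 5 of 7 symbols. Intervals at the 95% level and the 3-count floor cover counting error or library spread only.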

Additional observations from a re-analysis of the deposited data

Results flagged for a closer look

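Single libraries were looked for that stood far from the rest of their group, by the gap to the nearest library relative to the range, in 35 combinations of gene and group. Chance gives about 1 in 20, and 2 were found. Kdr in BDL_Sora library 3 was 12.9 CPM, against 2.17 to 7.44 CPM in the other 9 Sora libraries; without that library the log2 fold change of Kdr was -2.05 against ligated vehicle slices and 0.66 (adjusted p = 0.0835) against sham slices. Vegfa in BDL_veh library 6 was 351 CPM, against 285 to 320 CPM in the other 9 vehicle libraries. Library 6 was also 1 of the 2 vehicle libraries with the highest Kdr and Flt1. The uneven SB525334 group was not reached by this measure, since 3 libraries shared the high Kdr values.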

How the results depend on the processing

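Of the log2 fold changes of the 7 genes under the 12 alternatives other than leaving out 1 library, 803 kept their direction and side of the threshold, 18 lost the call, 11 gained it and 8 changed sign. With total counts the sign changed for Egfr (-0.19) between SB525334 and ligated vehicle slices. It also changed for Vegfa (-0.003) and Egfr (-0.03) between SB525334 and Nint, where 3 of 7 genes were called, against 11239 of 14775 genes. The median of all genes was then -0.38 and -0.39, and 24.5% and 23.9% of all calls were higher, against 52.3% and 50.1% with TMM. This median was 0.30 for ligation, with 66.1% of calls higher, against 48.7% with TMM. The 7 ligation calls held, against 11896 of 14775 genes called. Without SB525334 libraries 1, 6 and 8 the sign changed for Kdr (-0.79) and Flt1 (-0.14) against Sora and for Kdr (-0.13) against Nint. In limma-voom Kdr against Sora was -0.11, and with the plate column Egfr between Nint and Sora was -0.03. The fit of 2 groups alone and limma-voom each called 1 of the 7 genes between Nint and Sora. Over all genes they called 1605 of 14184 and 3729 of 14775. Between SB525334 and Nint, the Kdr to Flt1 difference of 0.11 was -0.21 without those 3 libraries, and the Vegfa to Kdr difference of -0.31 was 0.54 without them and 0.32 by medians over all libraries. Vegfa to Kdr against Sora was 1.33 without them and then called. By medians, Vegfa to Kdr against sham slices lost its call with Sora (0.63) and SB525334 (1.91). The correlation of Vegfa with Flt1 turned to 0.19 in Nint and -0.01 in sham slices with total counts. The cause of these changes was not tested.

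Leaving out each library in turn changed the sign of Fgfr1 between Nint and ligated vehicle slices (-0.05 to 0.0005) and of Pdgfrb (-0.01 to 0.07) and Kit (-0.02 to 0.07) between Nint and Sora, none of them called; 2 calls were gained and 2 lost, and the counts of called genes stayed at 4 with Sora and with Nint and at 7 with SB525334 and for ligation. Replicate numbers were not shown to pair libraries. Over 93 same-numbered pairs the correlation of deviations ran from -0.281 to 0.55, and 25 were over 0.1. The median was 0.013, against 0.00493 in pairs with different numbers, whose range was not computed. Of 48 libraries, 6 correlated best with their own number. With replicate number as a block, 7, 4, 4 and 7 of the 7 genes were called for ligation, Sora, Nint and SB525334. Over all 14775 genes 12111, 4330, 3603 and 10701 were called. Kdr was then -1.80, -2.41 and -1.56 with the 3 compounds, and no call of the 7 genes changed. Depth limits Kdr most, at 21 counts in its lowest library.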
